A study of Danio rerio with 12 samples.

Results

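The genes described here are 30 cardiomyocyte sarcomere genes of the zebrafish (Danio rerio), chosen by name as thick and thin filament, Z-disc, titin and M-band, desmin and chaperone, and calcium store and energy genes of heart muscle. Of 35 names listed, 30 stood in the deposited table under the same symbol, out of 24782 genes in all, and these are counted as members. The other 5 names (actn2, ttn.1, ttn.2, myom2a and cryab) were found only through their NCBI gene identifiers, under other symbols, and are described beside the members without being counted. Those symbols are, in the same order, actn2b, ttnb, ttna, si:dkey-78p20.4 and cryaba. The study sequenced polyadenylated RNA of 12 libraries of whole hearts taken 7 days after an operation, from fish 6 to 12 months old, in 4 groups of 3. The groups are cryoinjured yap -/- (mutant) hearts, sham-operated mutant hearts, cryoinjured yap +/+ (wild-type) hearts and sham-operated wild-type hearts. In cryoinjury a steel probe chilled in liquid nitrogen was held to the ventricle, and in sham operations the chest was opened and the ventricle was left alone. All fish, sham-operated ones included, therefore underwent anaesthesia and surgery. The mutant allele is not given in the sources used here, nor whether a library came from 1 heart or from several. The p-values therefore measure the spread between these libraries, part of which may be technical.

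A sarcomere is the contractile unit of striated muscle. Myosin thick filaments pull on actin thin filaments that are anchored at the Z-disc, titin spans from the Z-disc to the M-band, and calcium released from the sarcoplasmic reticulum switches contraction on through troponin and tropomyosin. The adult zebrafish heart replaces lost muscle from existing cardiomyocytes, which are known to take their sarcomeres apart when they divide. Yap, encoded by yap1, is a transcriptional co-activator restrained by the Hippo kinases.

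Levels are given in FPKM, a unit that divides a gene's fragments by transcript length and library size, so levels can be set side by side between genes. yap1 itself was at 13.7, 11.8 and 13.1 FPKM in cryoinjured mutants and 10.1, 14.3 and 14.4 FPKM in sham mutants, against 28.5, 29.8 and 22.1 FPKM in cryoinjured and 28.4, 28.4 and 18.8 FPKM in sham wild-type hearts, so that no mutant library reached the lowest wild-type library. Markers of other cell types and ribosomal protein genes also differed between libraries. Macrophage markers (19 genes) took 0.141 to 0.213% of summed FPKM in cryoinjured mutants and 0.0397 to 0.34% in sham mutants, against 0.127 to 0.218% in cryoinjured and 0.0518 to 0.0961% in sham wild-type hearts. Fibroblast and matrix markers (17 genes) took 0.157 to 0.235% in cryoinjured mutants and 0.0225 to 0.349% in sham mutants, against 0.192 to 0.321% in cryoinjured and 0.0384 to 0.105% in sham wild-type hearts. For both lists mutant sham 1 had the lowest and mutant sham 2 the highest share of all libraries. Epicardial markers (11 genes) took 0.551 to 0.845% in cryoinjured mutants and 0.319 to 0.554% in sham mutants, against 0.448 to 0.738% in cryoinjured and 0.155 to 0.376% in sham wild-type hearts. Over both injuries 10 of the 11 were higher in mutants (median log2 difference 0.65), where 53.9% of all genes tested were lower. At an unadjusted p under 0.05, 6 were higher, where 4.6% of all genes tested were. The keratin gene krt15, by 1.40 ± 0.17 (SE), passed the adjusted threshold (limma adjusted p = 0.0461), the only gene tested to do so in that comparison. In sham hearts the epicardial median was 1.06 in mutants minus wild type. There 7 of 11 were higher at an unadjusted p under 0.05, where 4.04% of all genes tested were. In wild type 11 of 11 were higher after cryoinjury, where 25.7% of all genes tested were lower. Of these, 9 had an unadjusted p under 0.05, where 7.85% of all genes tested were higher at that level. Erythrocyte markers (15 genes) took 7.08 to 9.76% in cryoinjured mutants and 2.77 to 9.27% in sham mutants, against 5.44 to 15% in cryoinjured and 2.36 to 19.8% in sham wild-type hearts, so that wild-type shams spread the widest. All 67 genes for cytosolic ribosomal proteins were higher in mutants over both injuries, by a median of 0.56 on the log2 scale. Of all genes tested 53.9% were lower there. Of the 67, 0 passed the adjusted threshold (limma), and 25 were higher at an unadjusted p under 0.05, where 4.6% of all genes tested were. These 67 genes took 28.3% of summed FPKM in mutant cryoinjury 2 and 34.4% in mutant sham 1, against 11.8 to 17.9% in the other 10 libraries. These 2 libraries also had the lowest shares of summed FPKM in the sarcomere genes, as described next. Hearts are mixtures of cells, so fewer cardiomyocytes and less of a transcript per cardiomyocyte cannot be told apart in these values. The part of these other cell types and of the ribosomal protein transcripts in the differences below was not tested.

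The sarcomere genes were among the most abundant transcripts, which fits the labelled tissue. myl7, the regulatory myosin light chain of zebrafish heart muscle, averaged 21416 FPKM over the 12 libraries and ranked 4 among all genes. It was followed by cmlc1, a cardiac essential myosin light chain, with a mean of 12552 FPKM, and by the cardiac actin gene actc1a with a mean of 10976 FPKM. The 8 most abundant members, which also include tpm4a, tnnt2a, tnnc1a, vmhcl and tnni1b, held 92.3% of the members' summed FPKM. At the other end, 28 of the 30 members had a mean FPKM of 1 or more and entered the tests, while the second desmin gene desmb (mean 0.431 FPKM) and the second Smyd1 gene smyd1a (mean 0.456 FPKM) did not.

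Together the 30 members took 9.82, 6.62 and 12.7% of summed FPKM in cryoinjured mutants and 7.65, 8.35 and 11.9% in sham mutants, against 13.45, 11.7 and 9.47% in cryoinjured and 16.05, 15.04 and 11.5% in sham wild-type hearts. The means were 9.71 ± 3.04% in cryoinjured mutants and 9.30 ± 2.28% in sham mutants, against 11.55 ± 1.99% in cryoinjured and 14.2 ± 2.41% in sham wild-type hearts (SD, n = 3 each). The mutant libraries ran lower and overlapped with the wild-type ones, both in cryoinjured and in sham hearts. Such a share falls when other transcripts take more of the library. With erythrocyte marker and ribosomal protein genes taken out of the sum, the group means were 13.5% in cryoinjured and 13.1% in sham mutants. Those of wild-type hearts were then 15.6% in cryoinjured and 18.5% in sham hearts.

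**Figure D1:**
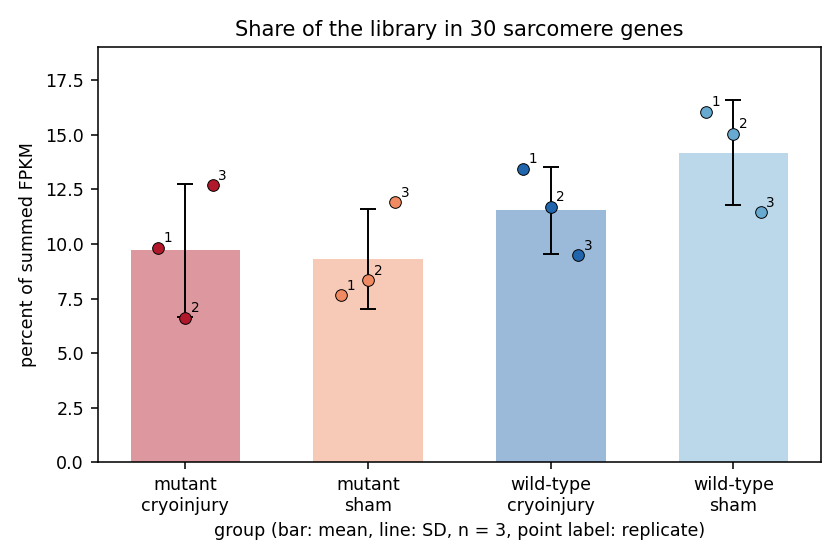
Percent of each library's summed FPKM taken by the 30 sarcomere genes, with the mean (bar), SD (line, n = 3) and the 3 libraries (points, numbered by replicate) of each group. Mutant cryoinjury 2 has the lowest share, 6.62%, and wild-type sham 1 the highest, 16.05%.

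Mutant cryoinjury 2 and mutant sham 1 each held the lowest value of 8 of the 30 members, and mutant sham 2 that of 5. Mutant sham 1 also held the highest value of 4 members, and mutant cryoinjury 2 that of 1. Relative to each gene's own median over the 12 libraries, the median member stood at -0.63 in mutant cryoinjury 2 and at -0.62 in mutant sham 1 on the log2 scale, and between -0.18 and 0.26 in the other 10 libraries. Within groups, the members' SD on the log2 scale had a median of 0.42, beside 0.34 over all genes tested. It was also 0.42 over the 620 genes of 100 FPKM or more, a level that not every member reached.

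**Figure D2:**
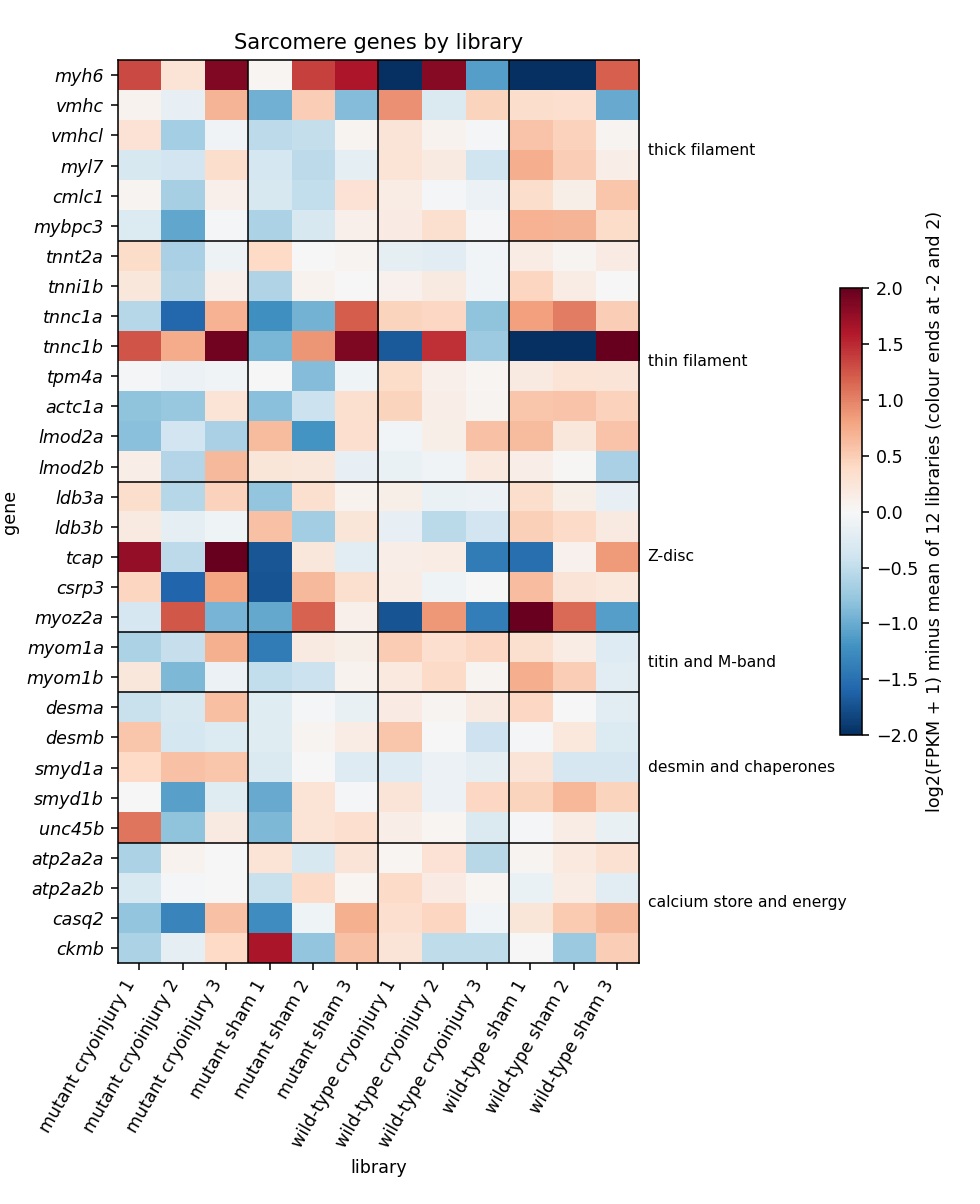
Each row is a sarcomere gene and each column a library, and the colour gives log2(FPKM + 1) minus the gene's mean over the 12 libraries, with the colour ending at -2 and 2. myh6, tnnc1b, tcap and myoz2a vary most between libraries of one group, and mutant cryoinjury 2 and mutant sham 1 are blue for many genes.

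The design asks how mutant hearts differ from wild-type hearts in each state. In cryoinjured hearts alone, 19 of the 30 members were lower in mutants, close to the 64.9% of all genes tested that were. Over both injuries, 20 of the 30 members were lower in mutants and 10 higher. Their median log2 difference was -0.22, beside -0.03 over all 13969 genes tested, of which 53.9% were lower. Of the 28 members tested, 19 were lower, and 22 when the values were rescaled to TPM. The cardiac myosin-binding protein gene mybpc3, the cardiac actin gene actc1a, the myosin chaperone gene smyd1b, the thin filament gene lmod2a, the M-band gene myom1b and the myosin heavy chain gene vmhcl had the smallest p among the lower members, although tnnc1a (-0.80) and casq2 (-0.71) differed by more than some of them. The atrial myosin heavy chain gene myh6 had the smallest p among the higher members. Each gene was tested with limma on log2(FPKM + 1), with Benjamini-Hochberg adjustment over all genes tested, and log2 differences below are differences of group means on that scale. By this test, 0 of 28 tested members passed an adjusted p of 0.05, where 0.00716% of all genes tested did. At an unadjusted p under 0.05, 6 members were lower (the 6 just named), where 5.06% of all genes tested were, and 1 was higher (myh6), where 4.6% of all genes tested were. Without mutant cryoinjury 2 and mutant sham 1, the 2 libraries rich in ribosomal protein transcripts, the members' median was -0.06, beside 0.06 over all genes. These 2 were also the lowest for the median member, and were left out together after seeing the data. Smaller differences without them were therefore largely built in, here and for the single genes below.

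In sham hearts alone, 23 of 30 members were lower in mutants and 7 higher, with a median of -0.37, beside 0.07 over all genes tested, of which 41.3% were lower. Again 0 members passed the adjusted threshold, as did 0% of all genes. At an unadjusted p under 0.05, 5 members were lower (mybpc3, myl7, actc1a, vmhcl and smyd1b), where 1.95% of all genes tested were, and 0 were higher, where 4.04% of all genes tested were. In 5 members, namely mybpc3, myl7, actc1a, smyd1b and tpm4a, each of the 3 sham mutants was below each of the 3 sham wild-type hearts, which held for 3.18% of all genes tested, and in 0 members each was above, which held for 7.01%. The median rested partly on 1 library: without mutant sham 1 it was -0.12, beside 0.20 over all genes. Without mutant sham 1 and 2 together, which leaves 1 sham mutant, it was -0.06, beside 0.08 over all genes.

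In cryoinjured hearts, 19 members were lower in mutants and 11 higher, with a median of -0.15, beside -0.11 over all genes tested, of which 64.9% were lower. Of the 28 members tested, 18 were lower, 15 after rescaling by median of ratios and 20 after rescaling to TPM. The adjusted threshold was passed by 0 members and by 0% of all genes (limma), and an unadjusted p under 0.05 was reached by 0 members, where 5.03% of all genes tested reached it. Of the members, 3 were lower without overlap between the libraries (tpm4a, lmod2a and atp2a2b), where 12.6% of all genes tested were. The one member higher without overlap was smyd1a, which was below the filter of the test, where 3.06% of all genes tested were. The median was 0.06 without mutant cryoinjury 2, beside -0.08 over all genes. That the sham and cryoinjured comparisons differ was tested by the interaction, given with the injury responses.

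**Figure D3:**
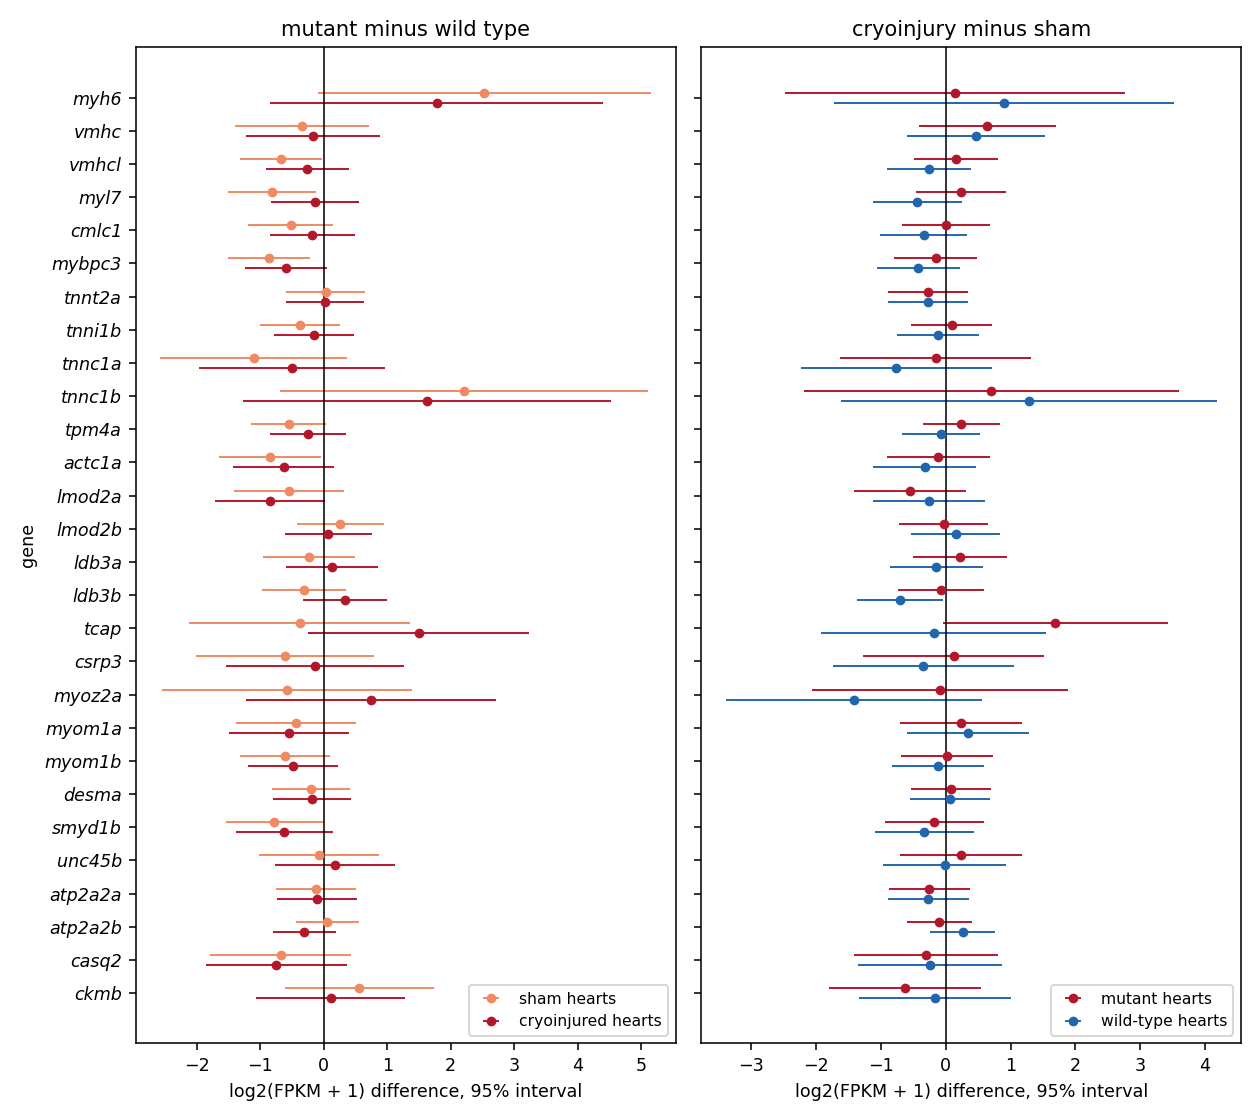
Differences of mean log2(FPKM + 1) for the 28 tested sarcomere genes with 95% intervals, mutant minus wild type on the left and cryoinjury minus sham on the right. In sham hearts most genes lie left of 0 in mutants, and the intervals of myh6, tnnc1b and myoz2a are several times wider than those of the abundant filament genes.

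The design also asks how each genotype responds to injury. In wild-type hearts the sarcomere genes ran lower after cryoinjury while the typical gene ran higher. Of 30 members, 22 were lower and 8 higher, and the median log2 difference was -0.18, beside 0.19 over all genes tested, of which 25.7% were lower. With limma 0 members were called, as were 0% of all genes tested. The Z-disc gene ldb3b was lower at an unadjusted p under 0.05, where 0.816% of all genes tested were, and 0 members were higher, where 7.85% of all genes tested were. In 7 members (mybpc3, tnnt2a, tnnc1a, actc1a, ldb3b, csrp3 and smyd1b) each cryoinjured library was below each sham library, which held for 3.44% of all genes tested, and in 1 member, myom1a, it was above, which held for 24.3%. When the libraries were rescaled by median of ratios, the median over all genes was -0.02 and that of the members -0.43. The members' median was -0.10 when rescaled without erythrocyte marker and ribosomal protein genes (0.26 over all genes). It was -0.06 without wild-type cryoinjury 3 (0.18 over all genes).

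In mutants, 14 members were lower and 16 higher after cryoinjury, with a median of 0.01, beside 0.01 over all genes tested, of which 47.5% were lower. Without overlap between libraries, 0 members were lower, where 2.05% of all genes tested were, and smyd1a alone was higher, where 2.05% were. Called members were 0 here as well (limma), as were 0% of all genes tested, and 0 had an unadjusted p under 0.05, where 3.11% of all genes did. The median moved between -0.14 and 0.28 when single libraries were left out, so its direction is not fixed by these data. The difference between the injury responses, mutant minus wild type, had a median of 0.19 over the members, beside -0.17 over all genes tested, with 20 members above 0 and 10 below, where 71.7% of all genes tested were below. Of the 28 members tested, 9 were below 0, and 5 after rescaling by median of ratios, which put the median over all genes at 0.00 and that of the members at 0.40. The members' median was 0.41 without mutant cryoinjury 2 (-0.15 over all genes) and 0.35 without mutant sham 3 (-0.18 over all genes). It was 0.03 without mutant sham 1 (-0.31 over all genes) or without mutant cryoinjury 3 (-0.18 over all genes). With library weights it was -0.04 (-0.20 over all genes). Its direction thus depends on the libraries and their weights, while it lay above the median over all genes in each of these fits. The difference between the responses was tested for each gene by the interaction term of limma, which called 0 members and 0% of all genes. An unadjusted p under 0.05 was reached by 0 members, where 1.94% of all genes reached it. Over both genotypes, 17 members were lower and 13 higher after cryoinjury (median -0.05, beside 0.10 over all genes tested, of which 32% were lower). Rescaling by median of ratios put 23 of the 28 tested members lower, against 17 without it, with a median of -0.21, beside -0.03 over all genes. Leaving out single libraries turned the direction of the median. It was 0.09 without mutant cryoinjury 2 (0.12 over all genes) and 0.03 without mutant sham 3 (0.10 over all genes). Without wild-type sham 1 it was 0.004 (0.10 over all genes). There limma called 0 members and 0.0644% of all genes tested, and 0 members had an unadjusted p under 0.05, where 9.7% of all genes did.

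Among the thick filament genes, mybpc3 stood at 809, 472 and 964 FPKM in cryoinjured mutants and 630.0, 778 and 1043 FPKM in sham mutants, against 1095, 1218 and 955 FPKM in cryoinjured and 1575, 1553 and 1251 FPKM in sham wild-type hearts. Its product, cardiac myosin-binding protein C, binds along the thick filament and tunes the reach of the myosin heads. Each sham mutant was below each sham wild-type heart, and among cryoinjured hearts only mutant cryoinjury 3 reached into the wild-type range. The means were 783 ± 210.2 FPKM in mutants and 1275 ± 247 FPKM in wild-type hearts (SD, n = 6 each), a ratio of 0.614. The difference over both injuries was -0.73 ± 0.21 (SE) on the log2 scale (limma unadjusted p = 0.00449, adjusted p = 0.357), the smallest p among the members. In sham hearts it was -0.86 ± 0.29 (SE) on the log2 scale (limma unadjusted p = 0.0129, adjusted p = 0.794). The difference over both injuries ranged from -0.83 to -0.58 over the fits that left out 1 library, and was -0.49 without mutant cryoinjury 2 and mutant sham 1, with adjusted p between 0.158 and 0.702 over all alternatives.

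myl7 stood at 16506, 15823 and 26207 FPKM in cryoinjured mutants and 16122, 14277 and 18218 FPKM in sham mutants, against 24911, 23348 and 15625 FPKM in cryoinjured and 34202, 29128 and 22630.1 FPKM in sham wild-type hearts. The 3 sham mutants were lower than the 3 sham wild-type hearts, while the cryoinjured groups overlapped. The difference was -0.81 ± 0.32 (SE) on the log2 scale (limma unadjusted p = 0.0254, adjusted p = 0.797) in sham hearts and -0.14 ± 0.32 (SE) in cryoinjured hearts. That the 2 differ was not shown: the interaction was 0.67 ± 0.45 (SE) on the log2 scale (limma unadjusted p = 0.159, adjusted p = 1). vmhcl stood at 4844, 2486 and 3783 FPKM in cryoinjured mutants and 2769.8, 2850.1 and 4140.1 FPKM in sham mutants, against 4769.7, 4152 and 3919 FPKM in cryoinjured and 5881, 5463 and 4115 FPKM in sham wild-type hearts. This myosin heavy chain gene, annotated as ventricular myosin heavy chain-like, was lowest in mutant cryoinjury 2 and mutant sham 1. Its difference over both injuries was -0.46 ± 0.21 (SE) on the log2 scale (limma unadjusted p = 0.0482, adjusted p = 0.512), and -0.28 without those 2 libraries. cmlc1, the essential light chain, ranged over 7686 to 18044 FPKM and differed by -0.35 over both injuries.

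The other heavy chain genes mark the chambers: myh6 encodes the atrial myosin of zebrafish and vmhc a ventricular one. myh6 stood at 178, 86.5 and 258 FPKM in cryoinjured mutants and 73.2, 184 and 221 FPKM in sham mutants, against 10.8, 254 and 32.6 FPKM in cryoinjured and 5.09, 14.7 and 165 FPKM in sham wild-type hearts. Among the wild-type libraries the values fell into a low set, wild-type cryoinjury 1 and 3 and wild-type sham 1 and 2, and 2 high libraries within the range of the mutants. No mutant library went below 73.2 FPKM. The difference over both injuries was 2.15 ± 0.85 (SE) on the log2 scale (limma unadjusted p = 0.0265, adjusted p = 0.463), from means of 167 ± 73.4 FPKM in mutants and 80.4 ± 104 FPKM in wild-type hearts (SD, n = 6 each). vmhc stood at 292, 247 and 446 FPKM in cryoinjured mutants and 142, 392 and 152 FPKM in sham mutants, against 526, 229 and 378 FPKM in cryoinjured and 357, 350.1 and 138 FPKM in sham wild-type hearts. Its low libraries, at 138 to 152 FPKM, were mutant sham 1 and 3 and wild-type sham 3, and the groups overlapped. The part of each library's chamber content in the myh6 and vmhc values was not tested. vmhc and vmhcl are related genes, and reads shared between them could have been divided in ways not given in the sources used here.

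Among the thin filament genes, actc1a stood at 5919.9, 6135 and 12501 FPKM in cryoinjured mutants and 5789, 7670.0 and 12946 FPKM in sham mutants, against 14046, 11263 and 10669 FPKM in cryoinjured and 15170.5, 15318 and 14280.4 FPKM in sham wild-type hearts. Mutant cryoinjury 3 and mutant sham 3 were the highest mutants, the other 4 mutants lay between 5789 and 7670 FPKM, and the sham groups did not overlap while the cryoinjured groups did. The difference over both injuries was -0.74 ± 0.26 (SE) on the log2 scale (limma unadjusted p = 0.0147, adjusted p = 0.425), and -0.53 without mutant cryoinjury 2 and mutant sham 1. Actin genes are similar in coding sequence, and reads could be shared between them.

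tpm4a, a tropomyosin gene that zebrafish hearts use, was named after its values were seen, because it did not overlap between genotypes. tpm4a stood at 8349.8, 7863 and 8127 FPKM in cryoinjured mutants and 8588, 4689 and 8043 FPKM in sham mutants, against 11010.2, 9144 and 8763 FPKM in cryoinjured and 9684, 10338 and 10230.5 FPKM in sham wild-type hearts. All 6 mutant libraries were below all 6 wild-type libraries, which held, in this direction, for 0.43% of all genes tested, and 1 of the members. No member was higher in all mutants, as 0.243% of all genes tested were. The means were 7609.9 ± 1453 FPKM in mutants and 9862 ± 829 FPKM in wild-type hearts (SD, n = 6 each), with a difference of -0.40 ± 0.19 (SE) on the log2 scale (limma unadjusted p = 0.0626, adjusted p = 0.524). The gap was narrow, since the highest mutant stood at 8588 FPKM and the lowest wild type at 8763 FPKM.

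**Figure D4:**
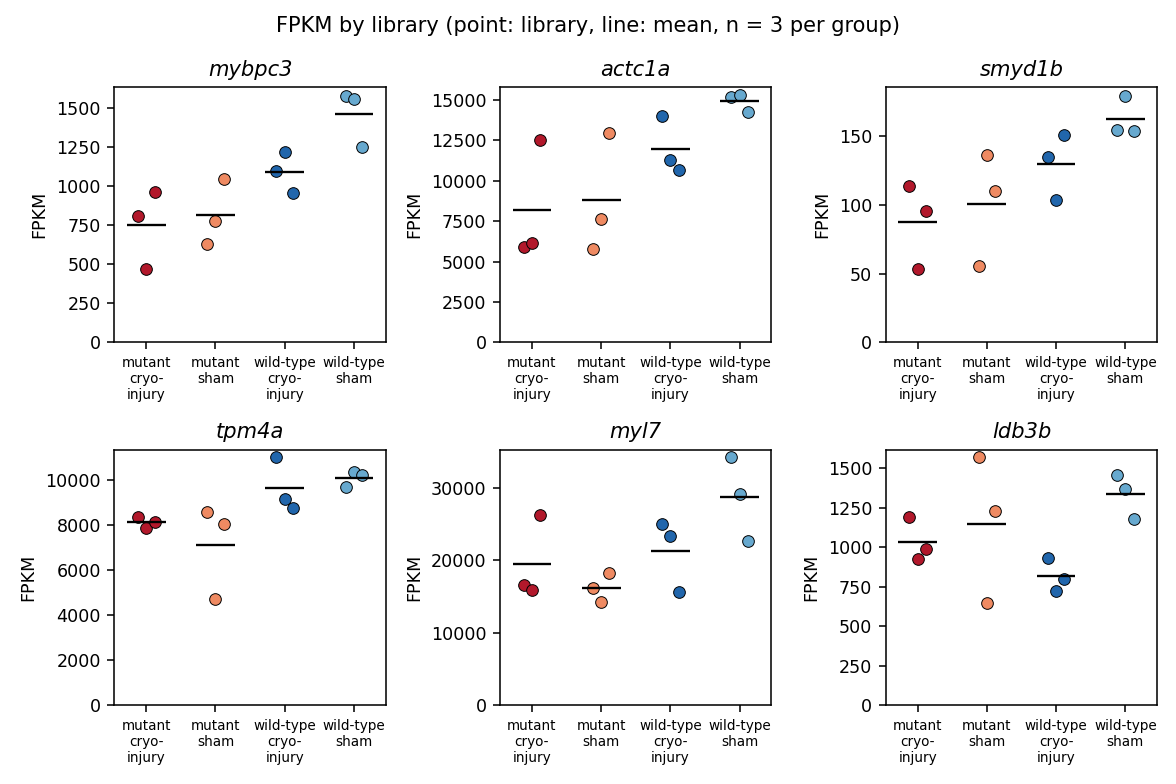
FPKM of 6 sarcomere genes in each library (points) with the mean of each group (line, n = 3), linear axes from 0. tpm4a is lower in each mutant than in each wild-type library, mybpc3, actc1a, smyd1b and myl7 are lower in each sham mutant than in each sham wild-type heart, and ldb3b is lower in each cryoinjured than in each sham wild-type heart.

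Troponin C, the calcium sensor of the thin filament, comes from a pair of genes in zebrafish, and both varied widely. tnnc1a stood at 2599, 1303 and 6281 FPKM in cryoinjured mutants and 1643, 2010.0 and 8916 FPKM in sham mutants, against 5282, 5130.0 and 2214 FPKM in cryoinjured and 6821, 7832 and 5451 FPKM in sham wild-type hearts. Mutant cryoinjury 1 and 2, mutant sham 1 and 2 and wild-type cryoinjury 3 were at 2599 FPKM or less, and the other 7 libraries at 5130 FPKM or more. tnnc1b stood at 487, 339 and 777 FPKM in cryoinjured mutants and 107, 373 and 741 FPKM in sham mutants, against 62.4, 559.9 and 122 FPKM in cryoinjured and 11.7, 27.6 and 832 FPKM in sham wild-type hearts. This second gene was lowest in wild-type sham 1 and 2 and wild-type cryoinjury 1, and all mutants lay between 107 and 777 FPKM. Over both injuries, tnnc1a differed by -0.80 ± 0.48 (SE) on the log2 scale (limma unadjusted p = 0.119, adjusted p = 0.57) and tnnc1b by 1.92 ± 0.94 (SE) on the log2 scale (limma unadjusted p = 0.0635, adjusted p = 0.524). For tnnc1a the difference was -0.30 without mutant cryoinjury 2 and mutant sham 1.

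The other troponin subunits were steadier. tnnt2a, which anchors troponin to tropomyosin, ranged over 5367 to 11043 FPKM, and tnni1b, an inhibitory subunit, over 2129 to 4372 FPKM. tnnt2a differed between genotypes by 0.03 ± 0.20 (SE) on the log2 scale over both injuries, with a 95% interval of -0.41 to 0.47. In wild type it was lower in each cryoinjured than in each sham library, by -0.27 ± 0.28 (SE) on the log2 scale (limma unadjusted p = 0.364, adjusted p = 0.763). The leiomodins lengthen thin filaments. lmod2a stood at 17.1, 23.6 and 19.6 FPKM in cryoinjured mutants and 49.1, 13.00 and 39.7 FPKM in sham mutants, against 30.1, 33.9 and 47.4 FPKM in cryoinjured and 48.8, 36.5 and 46.7 FPKM in sham wild-type hearts. In cryoinjured hearts each mutant was below each wild type, by -0.84 ± 0.40 (SE) on the log2 scale (limma unadjusted p = 0.0558, adjusted p = 0.873), and over both injuries the difference was -0.69 ± 0.28 (SE) on the log2 scale (limma unadjusted p = 0.0294, adjusted p = 0.48). lmod2b stood at 166, 99.9 and 236 FPKM in cryoinjured mutants and 178, 175 and 134 FPKM in sham mutants, against 136, 143 and 173 FPKM in cryoinjured and 166, 153 and 95.9 FPKM in sham wild-type hearts. lmod2b overlapped in all group comparisons and differed by 0.17 over both injuries.

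At the Z-disc, ldb3b stood at 1189, 924 and 986 FPKM in cryoinjured mutants and 1569.8, 645 and 1230.5 FPKM in sham mutants, against 932, 722 and 800.4 FPKM in cryoinjured and 1458, 1366 and 1178 FPKM in sham wild-type hearts. ldb3 genes encode Cypher, a scaffold that binds alpha-actinin. The 3 cryoinjured wild types were below the 3 sham wild types, by -0.71 ± 0.30 (SE) on the log2 scale (limma unadjusted p = 0.0386, adjusted p = 0.569). In mutants the difference was -0.07 ± 0.30 (SE), and the interaction was 0.64 ± 0.43 (SE) on the log2 scale (limma unadjusted p = 0.163, adjusted p = 1), so a difference between the responses was not shown. The lowest adjusted p of ldb3b in wild type over the alternatives was 0.0582, with library weights, and the highest 0.939. Its paralog differed less: ldb3a stood at 267, 142 and 289.7 FPKM in cryoinjured mutants and 121, 263 and 221 FPKM in sham mutants, against 227, 191 and 193 FPKM in cryoinjured and 268, 227 and 186 FPKM in sham wild-type hearts.

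tcap stood at 279, 57.04 and 366 FPKM in cryoinjured mutants and 24.3, 96.3 and 70.95 FPKM in sham mutants, against 90.5, 91.6 and 30.5 FPKM in cryoinjured and 28.4, 87.1 and 149 FPKM in sham wild-type hearts. tcap encodes titin-cap (telethonin), which joins the ends of titin at the Z-disc of both heart and skeletal muscle. Mutant cryoinjury 1 and 3 were the highest of all libraries, and mutant sham 1 the lowest. In mutants the difference after cryoinjury was 1.69 ± 0.79 (SE) on the log2 scale (limma unadjusted p = 0.0553, adjusted p = 1), and in wild type -0.18 ± 0.79 (SE). Fast skeletal muscle markers, 27 genes, were measured beside it. Their mean log2(FPKM + 1) was 1.57 to 2.48 in cryoinjured mutants and 0.90 to 1.35 in sham mutants, against 1.41 to 2.07 in cryoinjured and 1.03 to 1.43 in sham wild-type hearts, highest in mutant cryoinjury 3 and 1. Of the 15 tested, 13 were higher after cryoinjury over both genotypes (median 1.18), where 32% of all genes tested were lower. An unadjusted p under 0.05 was reached by 9, where 9.7% of all genes tested reached it in either direction. The parvalbumin genes pvalb1 and pvalb2 rose (limma adjusted p = 0.0343 for each). In mutants alone 14 of 15 were higher after cryoinjury, with a median of 1.3, where 47.5% of all genes tested were lower. Again 9 had an unadjusted p under 0.05, where 3.11% of all genes tested did in either direction. The markers' summed FPKM ran from 657 to 1260.3 in cryoinjured mutants and from 233 to 708 in sham mutants. In wild-type hearts it ran from 936 to 1430.2 after cryoinjury and from 1147 to 2071 after sham operation. That sum was mostly ckma, at 149 to 1912 FPKM, and casq1b, at 40.6 to 129 FPKM, while no other marker went above 25.7 FPKM. Of those markers, 6 stayed below 1 FPKM in every library, among them the fast myosin heavy chain genes myhz1.1, myhz1.2 and myhz1.3, each listed at 0 in 7 or more of the 12 libraries. The part of skeletal muscle in the tcap values was not tested.

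Like ldb3b, ldb3a and tcap, the remaining Z-disc genes were not called. csrp3, a muscle LIM protein gene, ranged over 158 to 905 FPKM and was lowest in mutant sham 1 and mutant cryoinjury 2. myoz2a stood at 2.64, 9.88 and 1.41 FPKM in cryoinjured mutants and 1.26, 9.42 and 3.93 FPKM in sham mutants, against 0.39, 7.33 and 0.75 FPKM in cryoinjured and 16.98, 9.05 and 1.14 FPKM in sham wild-type hearts. The low and high libraries of this calcineurin-binding gene were mixed over all groups, and in wild type it differed by -1.42 ± 0.90 (SE) on the log2 scale (limma unadjusted p = 0.143, adjusted p = 0.651) after cryoinjury. alpha-actinin, the main crosslinker of the Z-disc, was listed as actn2 and stood in the table as actn2b. actn2 stood at 413, 249 and 561 FPKM in cryoinjured mutants and 364, 402 and 578 FPKM in sham mutants, against 591, 752 and 558 FPKM in cryoinjured and 909, 761 and 538 FPKM in sham wild-type hearts. Over both injuries it differed by -0.70 ± 0.23 (SE) on the log2 scale (limma unadjusted p = 0.00978, adjusted p = 0.416), and only mutant cryoinjury 3 and mutant sham 3 reached into the wild-type range of their own injury.

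In the middle of the sarcomere, myom1b stood at 272, 124 and 214 FPKM in cryoinjured mutants and 165, 172 and 245 FPKM in sham mutants, against 267, 303 and 242 FPKM in cryoinjured and 384, 325 and 199 FPKM in sham wild-type hearts. myomesin crosslinks thick filaments at the M-band, and myom1b was lowest in mutant cryoinjury 2. It differed by -0.55 ± 0.23 (SE) on the log2 scale (limma unadjusted p = 0.0355, adjusted p = 0.493) over both injuries, and by -0.33 without mutant cryoinjury 2 and mutant sham 1. myom1a stood at 2.35, 2.74 and 7.48 FPKM in cryoinjured mutants and 0.96, 4.84 and 4.63 FPKM in sham mutants, against 6.33, 5.55 and 5.9 FPKM in cryoinjured and 5.48, 4.7 and 3.34 FPKM in sham wild-type hearts. Each cryoinjured wild type was above each sham wild type for myom1a, by 0.35 ± 0.43 (SE) on the log2 scale (limma unadjusted p = 0.433, adjusted p = 0.797). The titin genes, found by identifier, had modest FPKM. ttn.1 stood at 10.04, 7.44 and 19.4 FPKM in cryoinjured mutants and 3.88, 15.4 and 12.7 FPKM in sham mutants, against 13.4, 15.6 and 14.7 FPKM in cryoinjured and 23.4, 16.98 and 11.3 FPKM in sham wild-type hearts. ttn.2 stood at 12.7, 10.5 and 18.5 FPKM in cryoinjured mutants and 6.05, 16.4 and 12.9 FPKM in sham mutants, against 15.5, 17.2 and 17.6 FPKM in cryoinjured and 25.2, 20.5 and 11.7 FPKM in sham wild-type hearts. Both were lowest in mutant sham 1 and highest in wild-type sham 1, and differed over both injuries by -0.55 for ttn.1 and -0.49 for ttn.2, with adjusted p (limma) of 0.562 for ttn.1 and 0.531 for ttn.2. myom2a, the further M-band gene, ranged over 129 to 207 FPKM and differed by -0.05.

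Desmin filaments tie the Z-discs of neighbouring myofibrils together. desma stood at 459.8, 503 and 946 FPKM in cryoinjured mutants and 528, 615 and 565 FPKM in sham mutants, against 700.5, 647 and 707 FPKM in cryoinjured and 830.5, 631 and 534 FPKM in sham wild-type hearts. Mutant cryoinjury 3 was the highest of all and the groups overlapped, with a difference of -0.19 ± 0.20 (SE) over both injuries and a 95% interval of -0.63 to 0.24. desmb stood at 1.06, 0.1 and 0.16 FPKM in cryoinjured mutants and 0.18, 0.45 and 0.555 FPKM in sham mutants, against 1.05, 0.41 and 0.05 FPKM in cryoinjured and 0.38, 0.62 and 0.16 FPKM in sham wild-type hearts. desmb was near 0 in every library. The chaperone genes smyd1b and unc45b serve the folding and assembly of myosin. smyd1b stood at 114, 53.01 and 95.4 FPKM in cryoinjured mutants and 55.6, 136 and 110.2 FPKM in sham mutants, against 135, 104 and 151 FPKM in cryoinjured and 154, 179 and 154 FPKM in sham wild-type hearts. Each sham mutant was below each sham wild type, and mutant cryoinjury 2 and mutant sham 1 were the lowest. The difference over both injuries was -0.70 ± 0.25 (SE) on the log2 scale (limma unadjusted p = 0.0156, adjusted p = 0.427) and was -0.35 without those 2 libraries. smyd1a stood at 0.87, 1.12 and 1.08 FPKM in cryoinjured mutants and 0.16, 0.4 and 0.185 FPKM in sham mutants, against 0.18, 0.3 and 0.24 FPKM in cryoinjured and 0.7, 0.12 and 0.12 FPKM in sham wild-type hearts. smyd1a was above each sham mutant and each wild-type library in the 3 cryoinjured mutants, at levels of about 1 FPKM that were below the filter of the test. unc45b ranged over 24.6 to 98.9 FPKM, highest in mutant cryoinjury 1. The small heat shock protein gene cryab, measured under the symbol cryaba only, was listed at 0 in 11 of 12 libraries.

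Calcium is returned to the sarcoplasmic reticulum by the pump Serca2 and stored there on calsequestrin. atp2a2a stood at 541, 882 and 836 FPKM in cryoinjured mutants and 1008, 672 and 997 FPKM in sham mutants, against 855, 1021 and 570.4 FPKM in cryoinjured and 873, 958 and 1038 FPKM in sham wild-type hearts. The groups overlapped, and the difference over both injuries was -0.11 ± 0.20 (SE), with a 95% interval of -0.56 to 0.33. atp2a2b stood at 7.39, 9.22 and 9.36 FPKM in cryoinjured mutants and 6.6, 12.5 and 9.64 FPKM in sham mutants, against 12.5, 10.7 and 9.67 FPKM in cryoinjured and 8.49, 10.5 and 7.93 FPKM in sham wild-type hearts. In cryoinjured hearts each mutant was below each wild type for atp2a2b, by -0.31 ± 0.23 (SE) on the log2 scale (limma unadjusted p = 0.204, adjusted p = 0.873). casq2, cardiac calsequestrin, ranged over 81.9 to 338 FPKM and differed by -0.71 ± 0.36 (SE) on the log2 scale (limma unadjusted p = 0.0713, adjusted p = 0.528), and by -0.25 without mutant cryoinjury 2 and mutant sham 1. ckmb stood at 2.36, 3.58 and 5.9 FPKM in cryoinjured mutants and 15.3, 2.02 and 6.9 FPKM in sham mutants, against 5.25, 2.7 and 2.67 FPKM in cryoinjured and 4.24, 2.13 and 6.38 FPKM in sham wild-type hearts. This muscle creatine kinase gene was low throughout and highest in mutant sham 1, with a difference after cryoinjury of -0.62 ± 0.54 (SE) on the log2 scale (limma unadjusted p = 0.269, adjusted p = 1) in mutants.

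Paired genes were compared as ratios within a library, which depend on the scaling of a library only through the 1 FPKM added to each value. For the pairs with desmb and smyd1a, at about 1 FPKM or less, this addition is large, so those ratios do depend on the scaling. To a lesser degree this also holds for pairs with other low genes, such as myom1a, at 0.96 to 7.48 FPKM. The 10 pairs of paralogs or chamber genes gave 20 exact permutation tests, of injury within genotype and of genotype within injury, with 400 arrangements each. After adjustment over the 20, 0 were below 0.05, and 2 had an unadjusted p under 0.05. The smallest p possible was 0.005, so no ratio could pass the adjustment alone. The count of 0 therefore says little. The log2 ratio of tnnc1b to tnnc1a was -2.41, -1.94 and -3.01 in cryoinjured mutants and -3.93, -2.42 and -3.59 in sham mutants, against -6.38, -3.19 and -4.17 in cryoinjured and -9.07, -8.10 and -2.71 in sham wild-type hearts. The mutants lay between -3.93 and -1.94, and the wild-type hearts both within that range and far below it. The ratio was higher in mutants by 2.72 (exact permutation, two-sided p = 0.04, adjusted p = 0.38). The log2 ratio of smyd1b to smyd1a differed by -1.03 between mutants and wild type (exact permutation, two-sided p = 0.015, adjusted p = 0.3), where smyd1a was at about 1 FPKM or less. The log2 ratio of the ventricular vmhc to the atrial myh6 was 0.71, 1.5 and 0.79 in cryoinjured mutants and 0.94, 1.08 and -0.53 in sham mutants, against 5.48, -0.15 and 3.50 in cryoinjured and 5.88, 4.49 and -0.26 in sham wild-type hearts. It stayed between -0.53 and 1.5 in all 6 mutants and in 2 wild-type libraries, and reached 3.50 to 5.88 in the other 4 wild-type libraries. Its difference, mutant minus wild type, was -2.41 (exact permutation, two-sided p = 0.095, adjusted p = 0.38).

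**Figure D5:**
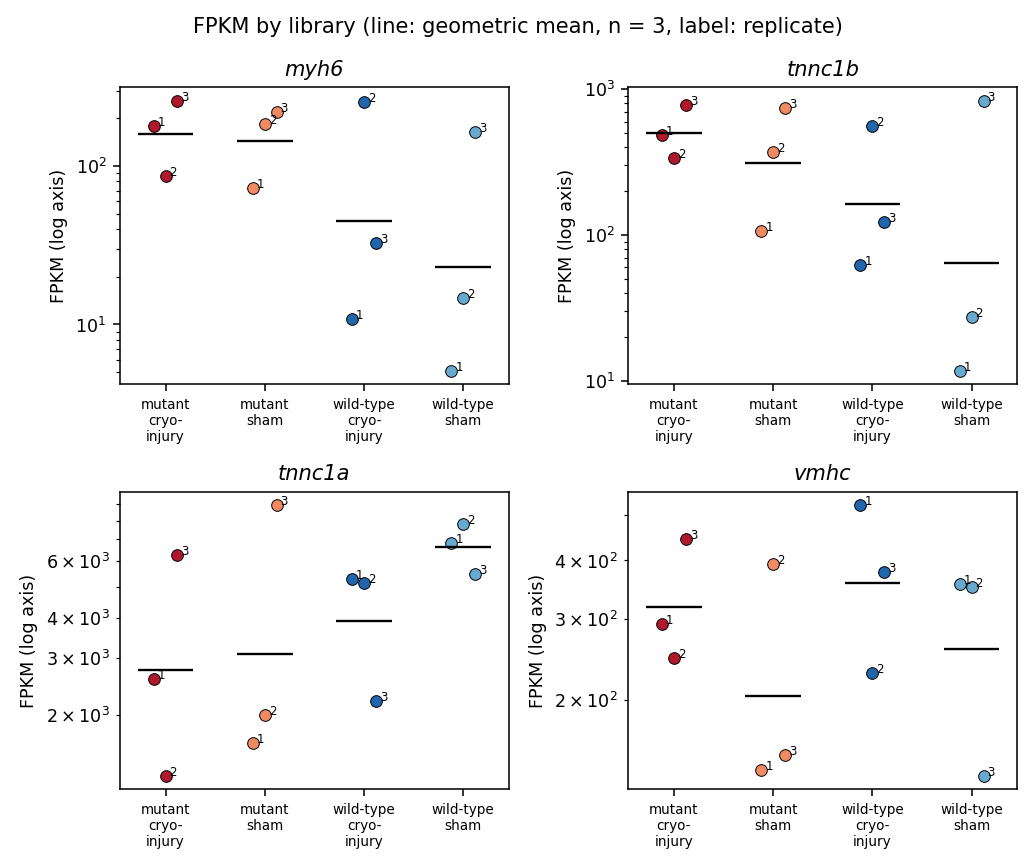
FPKM of the atrial and ventricular myosin genes myh6 and vmhc and of the troponin C genes tnnc1b and tnnc1a in each library, on log axes, with the geometric mean of each group (line, n = 3) and the replicate number beside each point. myh6 and tnnc1b are below every mutant in wild-type sham 1 and 2 and wild-type cryoinjury 1, while wild-type cryoinjury 3 is below every mutant for myh6 but not for tnnc1b.

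myh6 and tnnc1b were both below every mutant in wild-type cryoinjury 1 and wild-type sham 1 and 2, and in wild-type cryoinjury 3 myh6 was while tnnc1b, at 122 FPKM, was above mutant sham 1. Because the libraries fall into a low and a high set for myh6, no correlation over all 12 is given. Their spread within groups, an SD of 1.76 for myh6 and 1.95 for tnnc1b on the log2 scale, was above that of 98.9% and 99.0% of the genes of 100 FPKM or more. Among the related sarcomere genes, mybphb, a myosin-binding protein H gene, was named for its low p. mybphb stood at 112, 163 and 139.8 FPKM in cryoinjured mutants and 99.8, 153 and 156 FPKM in sham mutants, against 10.4, 91.5 and 36.7 FPKM in cryoinjured and 14.1, 14.8 and 105 FPKM in sham wild-type hearts. It too was low in wild-type cryoinjury 1 and 3 and wild-type sham 1 and 2, and it differed by 2.11 ± 0.55 (SE) on the log2 scale (limma unadjusted p = 0.00242, adjusted p = 0.302) over both injuries.

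Some members varied together over the 12 libraries of the 4 groups. Correlations of the 435 pairs of members were computed on the log2 scale, with permutation tests of 100000 resamples adjusted over the pairs. The median r was 0.196, and 22 pairs had an adjusted permutation p of r under 0.05. Pairs of other genes were not computed, so whether members varied together more than other genes was not tested. Libraries were permuted across all groups, so differences between the groups are part of these correlations. Correlations with the group means taken out are not given here. vmhcl and myom1b had r = 0.944 and rho = 0.958 (adjusted permutation p = 0.00217 for r and 0.00435 for rho), and r = 0.892 without the 2 libraries farthest from the median of vmhcl. For mybpc3 and actc1a r was 0.886 and rho 0.916 (adjusted permutation p = 0.00761 for r and 0.013 for rho), and r was 0.823 without the 2 farthest libraries. tnni1b and csrp3 had r = 0.909 (adjusted permutation p = 0.0477) and rho = 0.58 (adjusted permutation p = 0.355), but r = 0.351 without the 2 farthest libraries, so that relation rested on those 2. All values in a library share its scaling and its mix of cells.

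Related genes that are not members were counted in the same fits, and none of these 5 lists had a gene that passed the adjusted threshold in any comparison (limma). Of other sarcomere genes, 31 of 47 tested were lower in mutants over both injuries, with a median of -0.24, and 7 lower and 2 higher ones had an unadjusted p under 0.05. Of muscle chaperone and turnover genes 16 of 22 were lower (median -0.34, 6 lower at an unadjusted p under 0.05). Of genes that link the cytoskeleton to the membrane 23 of 26 were lower (median -0.35, 7 lower at an unadjusted p under 0.05). Of other calcium cycling genes 12 of 19 were lower (median -0.05, 2 lower and 1 higher at an unadjusted p under 0.05), and of creatine kinase and muscle energy genes 11 of 15 (median -0.17, 2 lower at an unadjusted p under 0.05). All genes tested had a median of -0.03 in that comparison, and 53.9% of them were lower. At an unadjusted p under 0.05 (limma), 5.06% of all genes tested were lower and 4.6% higher.

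Genes of these lists were named by their lowest p, and apart from mybphb and fbxo32 they were lower in mutants. hspb2 stood at 15.2, 16.98 and 22.6 FPKM in cryoinjured mutants and 20.1, 20.1 and 13.96 FPKM in sham mutants, against 26.1, 28.6 and 22.8 FPKM in cryoinjured and 33.3, 33.3 and 32.3 FPKM in sham wild-type hearts. Each mutant was below each wild type for this small heat shock protein gene of muscle, by -0.67 ± 0.15 (SE) on the log2 scale (limma unadjusted p = 0.000661, adjusted p = 0.226). mb stood at 8778, 4287 and 13001 FPKM in cryoinjured mutants and 4752, 6483 and 12883 FPKM in sham mutants, against 12328, 14613 and 12092 FPKM in cryoinjured and 23292, 20754 and 15183 FPKM in sham wild-type hearts. mb encodes myoglobin, the oxygen store of heart muscle, and differed by -1.06 ± 0.31 (SE) on the log2 scale (limma unadjusted p = 0.00569, adjusted p = 0.368). ckma stood at 482, 622 and 1041 FPKM in cryoinjured mutants and 149, 634 and 444 FPKM in sham mutants, against 1194, 1324 and 844 FPKM in cryoinjured and 1912, 1061 and 1124 FPKM in sham wild-type hearts. This creatine kinase gene, which also stands in the skeletal muscle list, was lower in each mutant sham than in each wild-type sham library, by -1.92 ± 0.49 (SE) on the log2 scale (limma unadjusted p = 0.00211, adjusted p = 0.761) in sham hearts. tmem38a stood at 5.2, 12.6 and 28.9 FPKM in cryoinjured mutants and 7.23, 19.2 and 22.2 FPKM in sham mutants, against 24.9, 26.2 and 28.4 FPKM in cryoinjured and 36.2, 35.2 and 34.95 FPKM in sham wild-type hearts. tmem38a encodes a cation channel of the sarcoplasmic reticulum and differed by -1.12 ± 0.35 (SE) on the log2 scale (limma unadjusted p = 0.00798, adjusted p = 0.393) over both injuries. The calcium release channel gene ryr2b differed by -0.78 ± 0.33 (SE) on the log2 scale (limma unadjusted p = 0.0377, adjusted p = 0.797) in sham hearts.

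The Z-disc gene myot (myotilin, listed under a provisional symbol) differed over both injuries by -0.84 ± 0.21 (SE) on the log2 scale (limma unadjusted p = 0.00175, adjusted p = 0.279), with 7.21, 7.19 and 13.1 FPKM in cryoinjured mutants and 6.03, 11.1 and 11.1 FPKM in sham mutants, against 18.8, 18.6 and 13.8 FPKM in cryoinjured and 19.5, 18.97 and 12.6 FPKM in sham wild-type hearts. parvab, which encodes a parvin that joins integrin to actin, differed by -1.11 ± 0.25 (SE) on the log2 scale (limma unadjusted p = 0.000993, adjusted p = 0.243). The ubiquitin ligase gene fbxo32 (atrogin-1), known from muscle wasting, was higher after cryoinjury in wild type, by 1.39 ± 0.35 (SE) on the log2 scale (limma unadjusted p = 0.00177, adjusted p = 0.41). fbxo32 stood at 28.7, 22.9 and 20.1 FPKM in cryoinjured mutants and 21.9, 18.01 and 12.3 FPKM in sham mutants, against 26.1, 16.5 and 30.1 FPKM in cryoinjured and 4.97, 14.2 and 8.04 FPKM in sham wild-type hearts. Each cryoinjured wild type was above each sham wild type, as for 24.3% of all genes tested.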

How the data were processed

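Libraries were grouped by the titles in the labels, 3 in each of 4 groups. RNA came from Trizol extraction with a BioAnalyzer check and went into low-input poly-A libraries for the BGISEQ-500, per the labels' protocols. The submitters' processing notes name HISAT, Bowtie2 and the build GRCz11. For versions, strand and reads shared by paralogs, nothing was given in these sources. One table of FPKM values was deposited by the authors. It has 14 value columns: 13 matched samples, and the remaining 1 went unused. The column read as mutant cryoinjury 1 is named in another pattern than most, so that match is less certain. The 2 columns of mutant sham 3 (median absolute log2 difference 0.017) were averaged. Relative depth was estimated from the steps between low values with 2 window widths. The estimates depended on the window, so they were discarded, and the depth behind the values is unknown.

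Genes averaging 1 FPKM or more (13969) were fitted with limma 3.58.1 in R 4.3.3 on log2(FPKM + 1), a scale on which changes of low genes come out too small. The fit had 1 mean per group over all 12 libraries and an intensity trend. Adjustment was by Benjamini-Hochberg at 0.05, and 95% intervals are unadjusted. There were 7 contrasts. Ratios of 10 gene pairs were tested by exact permutation, two-sided, with numpy 2.4.6 in Python 3.11.15. The limma script was run on simulated data with noise drawn independently for each gene. Shifts of whole libraries were not simulated, so that run cannot show how the fit handles them.

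The members and lists were chosen with earlier results of these data known. Values per library are given for yap1, the 4 members of lowest p in each single and averaged contrast, the most abundant member of each of 6 role classes and both genes of each pair. Of each related list the 2 genes of lowest p are named, except 1 gene that is not reported here. Other genes given by library, such as tpm4a and those found by identifier, were chosen after their values were seen. Names missing from the table were matched by NCBI gene identifier. Correlations between members were added after seeing the data, and the pairs named were picked from their results. Alternatives were a pseudocount of 0.1, no filter or a filter at 5 FPKM, 3 rescalings, library weights, only the groups compared, a replicate block, leaving out libraries, and each column of mutant sham 3 alone.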

Additional observations from a re-analysis of the deposited data

How the results depend on the processing

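The count of called members was 0 in all 7 contrasts and stayed at 0 in all 175 combinations of contrast and alternative, those that left out a library (range 0 to 0) included. In the main fits at most 0.0644% of all genes tested were called, so these counts say little about the members in particular. The share over all genes is not given here for the alternatives. The members' median log2 difference in wild-type hearts after cryoinjury ran from -0.24 (without wild-type cryoinjury 1, all-gene median 0.19) to -0.06 (without wild-type cryoinjury 3, all-gene median 0.18). It was -0.43 after median-of-ratios rescaling (all-gene median -0.02). In mutants after cryoinjury it ran from -0.14 (without mutant cryoinjury 3, all-gene median 0.01) to 0.28 (without mutant cryoinjury 2, all-gene median 0.06) when single libraries were left out. It was -0.23 without mutant sham 1 and 2 together (all-gene median 0.01). Mutant minus wild type ran from -0.51 (without mutant sham 3, all-gene median 0.06) to -0.12 (without mutant sham 1, all-gene median 0.20) in sham hearts. Without mutant sham 1 and 2 together, which leaves 1 sham mutant, it was -0.06 there (all-gene median 0.08). In cryoinjured hearts it ran from -0.28 (without mutant cryoinjury 3, all-gene median -0.12) to 0.06 (without mutant cryoinjury 2, all-gene median -0.08). The median of the interaction was highest, 0.41, without mutant cryoinjury 2 (all-gene median -0.15). It was 0.03 without mutant sham 1 (all-gene median -0.31) and without mutant cryoinjury 3 (all-gene median -0.18). It was -0.11 without mutant sham 1 and 2 together (all-gene median -0.19) and -0.04 with library weights (all-gene median -0.20). The median of injury over both genotypes ran from -0.12 (without mutant cryoinjury 1, all-gene median 0.09) to 0.09 (without mutant cryoinjury 2, all-gene median 0.12) when single libraries were left out. It was -0.21 without mutant sham 1 and 2 together (all-gene median 0.10). Leaving out mutant cryoinjury 2 and mutant sham 1 together was chosen after seeing the data. Both were the lowest for the median member, so smaller differences between genotypes without them were largely built in. The members' share was also taken of a sum of FPKM without erythrocyte marker and ribosomal protein genes. That share was 13.5% in cryoinjured and 13.1% in sham mutants, against 15.6% in cryoinjured and 18.5% in sham wild-type hearts. These shares are higher because the sum is smaller by construction. No ratio was called under any alternative, which says little, since with 400 arrangements no ratio could pass the adjustment alone. Of 18 pairs of same-numbered libraries, 3 had a correlation of their deviations from the group means over 0.1 (range -0.20 to 0.33). The highest was that of mutant cryoinjury 3 and mutant sham 3. Pairs with different numbers were not compared, so whether the numbers pair samples was not tested. The fit with the replicate block called 0 members in all 7 contrasts, and its share over all genes is not given here. Members varied within groups by a median SD of 0.42 on the log2 scale, beside 0.34 over all genes tested.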
